A study of Mus musculus with 12 samples.

Results

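Chromatin accessibility of mouse embryonic stem cells (mESCs) was compared with that of mouse embryonic fibroblasts (MEFs), with the values of both sequencing platforms averaged in each library. The members were set by the sample labels: mESC libraries 1, 3 and 5 against MEF libraries 1, 2 and 4, so that all 12 samples of the series entered as 6 libraries, 3 against 3. All cells had a C57/Bl6 background. MEFs were sorted by flow cytometry as Thy1+ cells and mESCs as Thy1-/Ssea1+/Epcam+ cells, Omni-ATAC-seq libraries were made from the sorted cells, and each library was sequenced on both instruments, a DNBSEQ-G400 from BGI and a HiSeqX10 from Illumina, which gave 4 groups of 3 samples. The labels do not say whether libraries of a cell type came from separate cultures, while the study calls them biological replicates, so p-values here measure only the spread between these libraries.

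ATAC-seq uses the Tn5 transposase to cut DNA where nucleosomes leave it exposed, and marks promoters, enhancers and insulators that are open in a cell. mESCs are kept in the pluripotent state by a network of transcription factors around OCT4 (Pou5f1), SOX2 and NANOG, whereas MEFs are connective tissue cells that secrete collagen-rich matrix and keep an actin contractile apparatus. Promoters of housekeeping genes are open in most cell types, while distal elements tend to be open in few.

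Levels are given as log2 CPM, the reads of a site scaled to a common total of reads in sites and put on a log2 scale. All sites are 502 bp wide, so that levels can be compared between them. A difference is the mESC mean minus the MEF mean on this log2 scale, with its standard error (SE), and 1 unit is a 2-fold change. A site was called when the adjusted p of the edgeR quasi-likelihood test was under 0.05. A called site was gained in mESC when its difference was 1 or more, and lost when it was -1 or lower. A prior count of 2 compresses the differences of sites with few reads. In these bulk samples, fewer cells with an open site and a less open site in each cell cannot be told apart.

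The sequences of a few marker and named sites are printed here as examples, on the plus strand of GRCm38, as the central 300 bases of each site. They were picked with their motif matches in view. The first 3 were gained in mESC. The Pou5f1 site lay upstream of the gene at chr17:35503832-35504131, and the Esrrb site in an intron at chr12:86501785-86502084. The site nearest to Gm5155 (chr7:17903251-17903550) consisted for 80.3% of bases that the reference marks as repeats. Capitals mark the letters of the motifs OCT-SOX (TTGTNATGC), OCT (ATGCAAAT), ESRRB (TCAAGGTCA), KLF (GGGTGTGG) and the E-box CACCTG, on either strand.
Pou5f1 distal site: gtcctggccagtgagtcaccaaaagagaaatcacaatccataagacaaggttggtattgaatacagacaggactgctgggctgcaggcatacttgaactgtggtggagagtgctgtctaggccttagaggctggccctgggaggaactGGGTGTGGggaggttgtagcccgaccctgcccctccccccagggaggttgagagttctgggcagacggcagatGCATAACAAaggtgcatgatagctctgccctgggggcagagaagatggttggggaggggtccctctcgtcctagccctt
Esrrb distal site: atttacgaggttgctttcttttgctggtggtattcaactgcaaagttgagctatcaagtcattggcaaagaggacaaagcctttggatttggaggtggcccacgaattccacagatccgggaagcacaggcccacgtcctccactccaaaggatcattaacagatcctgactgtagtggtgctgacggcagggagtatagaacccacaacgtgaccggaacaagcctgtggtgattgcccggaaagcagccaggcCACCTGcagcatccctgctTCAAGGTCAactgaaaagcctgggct
Gm5155 distal site: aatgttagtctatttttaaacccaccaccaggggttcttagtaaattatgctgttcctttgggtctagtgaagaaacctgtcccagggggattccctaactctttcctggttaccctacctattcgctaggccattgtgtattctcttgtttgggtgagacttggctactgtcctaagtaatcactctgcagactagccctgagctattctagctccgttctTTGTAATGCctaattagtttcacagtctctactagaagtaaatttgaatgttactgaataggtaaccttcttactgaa

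The next 3 sites were lost in mESC and lay at chr9:43945168-43945467 (nearest to Thy1), chr1:45309076-45309375 (upstream of Col3a1) and chr6:142367628-142367927 (within 1 kb of a start site of Recql). Capitals mark the motifs AP-1 (TGACTCA) and TEAD (ACATTCC), on either strand. A match is a description of the letters and not evidence of binding.
Thy1 distal site: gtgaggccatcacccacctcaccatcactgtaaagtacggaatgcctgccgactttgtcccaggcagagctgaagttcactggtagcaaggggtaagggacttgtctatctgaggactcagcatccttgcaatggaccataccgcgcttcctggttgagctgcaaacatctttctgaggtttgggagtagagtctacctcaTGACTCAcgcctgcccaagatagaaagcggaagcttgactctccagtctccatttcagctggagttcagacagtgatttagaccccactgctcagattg
Col3a1 distal site: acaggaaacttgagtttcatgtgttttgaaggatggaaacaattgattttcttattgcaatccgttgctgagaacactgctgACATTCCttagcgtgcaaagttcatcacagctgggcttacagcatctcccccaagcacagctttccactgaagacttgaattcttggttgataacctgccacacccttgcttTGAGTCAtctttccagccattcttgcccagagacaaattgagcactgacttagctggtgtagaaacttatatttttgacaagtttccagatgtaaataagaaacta
Recql promoter site: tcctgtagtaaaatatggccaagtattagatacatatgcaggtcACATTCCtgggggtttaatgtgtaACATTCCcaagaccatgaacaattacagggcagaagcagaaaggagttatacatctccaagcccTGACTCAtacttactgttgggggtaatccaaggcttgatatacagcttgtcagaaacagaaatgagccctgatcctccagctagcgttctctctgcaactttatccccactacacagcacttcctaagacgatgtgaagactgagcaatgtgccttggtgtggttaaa

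The sorted populations carried the accessibility of their labelled cell types. Promoter levels of the 5 mESC markers summed to 113 to 126 CPM in the mESC libraries and 21.9 to 24.6 CPM in the MEF libraries. Those of the 5 MEF markers summed to 29.4 to 32.2 CPM in mESC and 147 to 171 CPM in MEF. The first principal component separated the cell types and held 96.8% of the variance between libraries. Reads in sites numbered 15860985 to 17089560 per mESC sample and 20085886 to 21831840 per MEF sample, after the authors had down-sampled MEF samples to 60 M reads and mESC samples to 45 M.

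Accessibility differed between the cell types at most sites. Of 91354 sites, 78223 were called (85.6%), of which 38188 were higher in mESC (41.8% of all sites) and 40035 were lower (43.8%). Gained sites numbered 29510 (32.3%) and lost sites 27933 (30.6%). The 3 mESC values and the 3 MEF values did not overlap at 80290 sites (87.9%). The median SD between libraries was 0.17 in mESC and 0.18 in MEF, and the median SE of a difference was 0.17 log2 units, so that the boundary of 1 lay well outside the usual spread. The median difference of all sites was -0.14, and it moved to 0.06 when the down-sampled depth served as library size.

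Many sites of each cell type had no called peak in the other. No summit had been called in any of the 6 MEF samples at 54.6% of the gained sites, and in none of the 6 mESC samples at 52.8% of the lost sites. In their own cell type, 95.03% of gained and 92.3% of lost sites held a strong summit (−log10 p of at least 10) in all 6 samples. The median fold enrichment of the summit over background was 12.7 at gained sites in mESC and 13.1 at lost sites in MEF. In the deposited lists of reproducible peaks, 94.0% of gained sites overlapped the mESC lists alone and 90.0% of lost sites the MEF lists alone, while 76.3% of the remaining sites overlapped both. These calls come from the same reads as the counts, so they describe the change and do not test it anew. The authors also built the sites from reproducible peaks of both cell types, so every site overlapped a list. A gained site mostly entered through the mESC lists and a lost site through the MEF lists, so this overlap was largely fixed in advance. The share of sites called holds for such peaks alone.

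Promoters and distal sites differed in how much they changed. Promoter sites had their centre within 1 kb of the start site (TSS) of a protein-coding transcript, and distal sites had no TSS of any gene within 1 kb. The median size of the difference was 0.50 at 21651 promoter sites and 2.49 at 61535 distal sites. Of the promoter sites, 11.66% were gained and 11.95% lost, against 39.0% and 37.9% of the distal sites. Changes over 16-fold were counted at 187 gained and 118 lost promoter sites, and at 4637 gained and 6925 lost distal sites. Promoters made up 8.55% of gained sites (95% Wilson interval 8.24 to 8.88), 9.27% of lost sites (8.93 to 9.61) and 48.8% of the sites that were neither. The intervals cover counting error only. These promoter shares moved with the scaling, so their order is not read here.

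**Figure D1:**
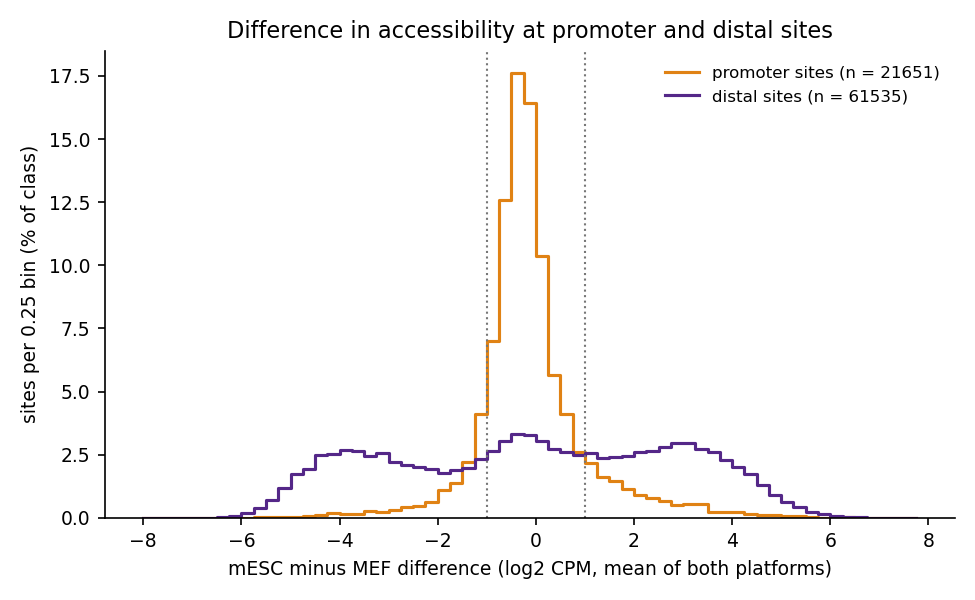
Distribution of the mESC minus MEF difference (x axis, log2 CPM averaged over both platforms) at promoter and distal sites (y axis, percent of the class per bin of 0.25), with dotted lines at -1 and 1. Promoter sites form 1 narrow peak just below 0 (median -0.24), and distal sites spread into a lost and a gained shoulder around a smaller centre.

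Promoters that changed held fewer CpG dinucleotides than those that did not. Gained promoters held a median of 2.79 CpG per 100 bp and lost promoters 3.19, whereas promoters that were neither held 7.37. Among distal sites, the median GC content was 49.8% for gained, 46.6% for lost and 50.8% for the remaining sites. Gained distal sites lay a median of 19765 bp from the nearest protein-coding TSS and lost distal sites 38075 bp. Of the 9966 distal sites over 100 kb from any protein-coding TSS, 31.1% were gained and 57.6% lost, with a median difference of -2.19. Distal sites in exons leaned the other way, with 47.0% gained and 20.5% lost of 3950.

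The share of reads that fell in promoters was 45.1%, 47.8% and 45.3% in mESC libraries 1, 3 and 5 and 48.1%, 48.5% and 50.2% in MEF libraries 1, 2 and 4. Each mESC library was below each MEF library with this promoter window of 1 kb. The groups overlapped with a window of 2 kb (difference -2.42, exact permutation p = 0.2) and with the TSSs of all genes (-1.93, exact permutation p = 0.3). The difference of -2.89 percentage points had p = 0.1 in a two-sided exact permutation test, the smallest p that 3 against 3 libraries allow, and adjusted p = 0.3 over 3 such shares. The share of reads at distal sites (45.2% ± 1.34 in mESC and 43.4% ± 1.14 in MEF, SD, n = 3) gave an exact permutation p = 0.3.

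Markers of the sorts and of the cell types changed at their own promoters, though not at every start site. Where a gene had several sites within 1 kb of its annotated start sites, the one with the highest mean level stands for its promoter, and this can lie at an internal start. Epcam, an epithelial adhesion molecule and a sort marker of the mESCs, had promoter levels of 4.10, 4.02 and 3.84 log2 CPM in mESC 1, 3 and 5 and of 2.36, 2.71 and 2.43 in MEF 1, 2 and 4. Its difference was 1.49 (SE 0.13; edgeR adjusted p = 1.51e-07). Thy1, the surface glycoprotein used to sort the MEFs, had 3.21, 3.32 and 3.50 in mESC and 5.28, 5.01 and 5.12 in MEF, a difference of -1.80 (SE 0.11; adjusted p = 4.03e-09). The groups did not overlap at either promoter, and the Thy1 promoter kept a clear signal in the Thy1- sorted mESCs. Expression was not analysed here.

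Pou5f1, which encodes OCT4, had 4 promoter sites, all gained. The one at the start of the full-length transcript (chr17:35505718-35506219) measured 3.87, 4.20 and 3.67 log2 CPM in mESC and -0.53, 0.16 and -0.998 in MEF (difference 4.37, SE 0.37; adjusted p = 2.08e-09). The one with the highest level (chr17:35509264-35509765) lay inside the gene, near start sites of shorter transcripts, and measured 4.68, 4.64 and 4.65 against 2.63, 1.99 and 2.58 (difference 2.26, SE 0.21; adjusted p = 5.31e-09). The signal in MEF was thus higher at the internal site than at the full-length start.

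Nanog, a homeobox factor of the same network, had promoter levels of 4.45, 4.73 and 4.37 log2 CPM in mESC against -1.04, 0.65 and -0.06 in MEF (difference 4.67, SE 0.50; adjusted p = 1.03e-09). Zfp42, a zinc finger gene long used as a marker of mESCs, had 5.60, 5.64 and 5.43 against 0.49, -0.57 and 0.17 (difference 5.53, SE 0.32; adjusted p = 9.40e-12). Both promoters were close to closed in MEF.

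At Esrrb, an orphan nuclear receptor of the pluripotency network, the start sites differed. The site with the highest level (chr12:86421371-86421872) measured 3.23, 3.04 and 3.22 log2 CPM in mESC and 3.52, 3.20 and 3.41 in MEF, with a difference of -0.21 (SE 0.11) that was not called (adjusted p = 0.36), and the groups overlapped. A second promoter site (chr12:86469852-86470353), 15 bp from another Esrrb start, measured 3.79, 4.21 and 3.93 against -0.12, -0.13 and -0.15 (difference 4.11, SE 0.12; adjusted p = 1.38e-10), and the third was gained as well. Of the 25 distal sites nearest to the gene, 20 were gained and 0 lost. The intronic site printed above, 31818 bp from the TSS, rose from -0.54, -0.57 and -1.05 in MEF to 5.79, 5.98 and 5.54 in mESC (difference 6.49, SE 0.21; adjusted p = 4.01e-12). The printed window held 1 ESRRB and 1 CACCTG match.

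Distal sites nearest to the mESC markers were mostly gained. All 3 distal sites nearest to Pou5f1 were gained. The printed one, 2036 bp from the TSS, had 4.93, 4.97 and 4.98 log2 CPM in mESC against 0.18, 0.51 and -0.30 in MEF (difference 4.83, SE 0.24), and held an OCT-SOX match. All 6 distal sites nearest to Zfp42 were gained, as were 7 of 9 at Epcam with 0 lost. At Nanog, 4 of 8 were gained and 1 was lost.

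MEF markers were lower in mESC at their promoter site of highest level. The promoter of Col1a2, a chain of type I collagen, measured 3.04, 2.99 and 2.88 log2 CPM in mESC and 5.68, 5.50 and 5.88 in MEF (difference -2.72, SE 0.12). That of Col3a1, which encodes type III collagen, measured -0.00062, -0.62 and -0.48 against 3.97, 3.73 and 4.15 (difference -4.32, SE 0.22). Col1a2 stayed moderately open in mESC, and Col3a1 was near the floor there. Among mesenchymal transcription factors, the promoter of Twist1 fell by 2.08 and that of Prrx1 by 2.98. A second Twist1 promoter site (chr12:33958389-33958890) measured 3.11, 3.41 and 3.30 in mESC and 3.46, 3.18 and 3.41 in MEF, a difference of -0.08 that was not called (adjusted p = 0.90), with overlapping groups. The distal site of Thy1 printed above, located in an intron 98066 bp from the Thy1 TSS, had 0.01, 0.17 and -0.07 in mESC and 5.90, 5.59 and 5.33 in MEF, a difference of -5.57 (SE 0.18). The printed Col3a1 distal site had a difference of -4.85. Of the distal sites nearest to each gene, 8 of 10 were lost at Thy1, 15 of 18 at Col1a2, 3 of 4 at Col3a1, 6 of 7 at Prrx1 and 2 of 5 at Twist1, and 1 at Col1a2 was gained.

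**Figure D2:**
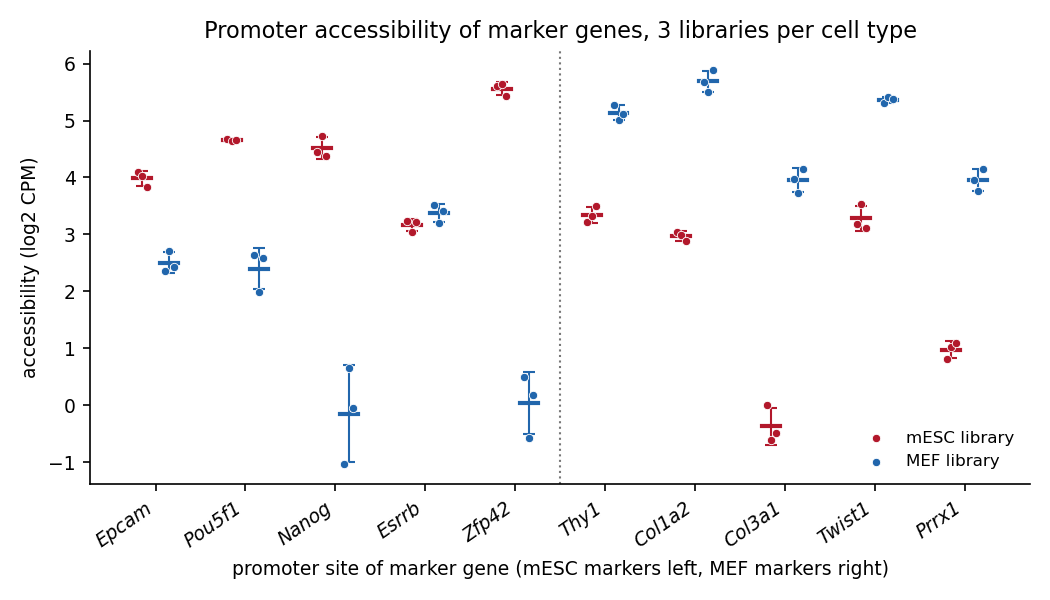
Promoter accessibility (y axis, log2 CPM) of 5 mESC and 5 MEF marker genes (x axis), with 1 point per library, the mean as a thick bar and the SD over 3 libraries as a thin one. Each gene is shown at its promoter site of highest level, where the groups are separate at 9 of the 10 genes and meet at Esrrb.

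Several of the largest promoter gains were at genes with similar sequences. The 7 named promoters with the largest gains belonged to Gm14393, Gm14401, Izumo2 (a member of the sperm IZUMO family), Mageb16 (a MAGE family gene on chromosome X), Gm14124, Gm14443 and Zfp936 (a zinc finger gene), with differences of 6.28 to 6.83. The Gm14393 promoter measured 6.03, 6.07 and 5.90 log2 CPM in mESC and -0.70, -0.88 and -0.90 in MEF, which is 2186, 2354 and 2044 reads against 21, 27 and 17. Izumo2 measured 5.09, 5.07 and 4.97 against -1.52, -1.95 and -1.04. No group overlapped, since the naming rule required it.

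The 4 predicted genes of this set, Gm14393, Gm14401, Gm14124 and Gm14443, all lie on chromosome 2. Aligned in the better orientation, the windows of Gm14401 (chr2:177073996-177074295) and Gm14443 (chr2:175175840-175176139) shared 82.3% of 300 bases, against a median of 55.7% over the 21 pairs of gained promoters. The other 5 pairs among the 4 genes shared 67.7% to 73.7%. This pair is printed as the most alike of the 21, with the CACCTG match of Gm14401 in capitals. The study kept reads with a mapping quality of at least 10, and reads of near-identical copies may still be split or dropped, so the level of each copy is uncertain.
Gm14401 promoter site: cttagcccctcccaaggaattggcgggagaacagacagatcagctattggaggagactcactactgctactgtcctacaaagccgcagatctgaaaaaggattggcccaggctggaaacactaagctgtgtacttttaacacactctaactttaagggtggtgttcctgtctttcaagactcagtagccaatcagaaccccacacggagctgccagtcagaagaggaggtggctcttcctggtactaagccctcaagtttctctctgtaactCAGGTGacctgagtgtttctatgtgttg
Gm14443 promoter site: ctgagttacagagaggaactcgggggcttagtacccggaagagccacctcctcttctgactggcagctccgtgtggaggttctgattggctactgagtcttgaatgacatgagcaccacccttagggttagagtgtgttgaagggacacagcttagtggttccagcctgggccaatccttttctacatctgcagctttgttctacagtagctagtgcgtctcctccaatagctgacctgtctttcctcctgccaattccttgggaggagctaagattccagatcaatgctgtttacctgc

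The largest promoter losses belonged to genes of varied function. They were Spink13 (a Kazal-type protease inhibitor gene), Map3k7cl, Cmah (the hydroxylase that makes N-glycolylneuraminic acid), Recql (a RecQ DNA helicase), Il1r1 (the interleukin-1 receptor), 4930558K02Rik and Casp14 (a caspase of cornifying skin), with differences of -6.28 to -5.60. Il1r1 measured -0.60, -0.79 and -1.44 log2 CPM in mESC against 4.74, 4.62 and 4.73 in MEF (difference -5.64, SE 0.26; adjusted p = 2.08e-11). The Recql site lay 989 bp from the nearest Recql TSS, inside an intron, and its printed window held 1 AP-1 and 2 TEAD matches. It measured -0.10, -1.15 and -1.04 against 5.12, 5.09 and 4.64.

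The largest distal gains were nearest to Gm10139, Gm14409, Ptprk (a receptor tyrosine phosphatase), Nme7, Gm14412, Gm5155 and Zfp808 (a zinc finger gene), with differences of 6.54 to 7.37. The site 60313 bp from the Ptprk TSS measured 5.07, 5.19 and 4.97 log2 CPM in mESC against -1.61, -2.24 and -1.12 in MEF. The windows of Gm14409 and Gm14412 were 90.3% identical, so these 2 sites count as near copies with uncertain levels. The printed Gm5155 site, which holds an OCT-SOX match in repeat-masked sequence, measured 4.18, 4.53 and 4.15 against -2.67, -1.85 and -2.26.

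The largest distal losses were nearest to Ccl8 (a chemokine), Rubcnl, Ctso (cathepsin O), Ccn6, Neb (nebulin of the muscle thin filament), Tnfrsf11a (the receptor RANK) and Tmem39a, with differences of -7.04 to -6.24. The site 24467 bp from the Ccl8 TSS measured -2.36, -0.95 and -1.56 log2 CPM in mESC against 5.53, 5.43 and 5.31 in MEF. In reads, that was 4, 16 and 9 against 1889, 1666 and 1570. No pair of the 7 windows was more than 57.7% identical.

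Lists of genes with known roles were described by 1 promoter site per gene, the one with the highest level. Over all 14706 protein-coding genes with such a site, 1212 promoters were gained (8.24%) and 1184 lost (8.05%), and the median difference was -0.24. The test called 68.5% of them in either direction. Of these genes, 6353 had more than 1 promoter site, and when a gene counted by any of its promoter sites, 2181 were gained (14.8%) and 2242 lost (15.2%). Counts of list promoters below refer to the site of highest level unless any site is named. Distal sites were assigned to the protein-coding gene with the nearest TSS within 100 kb, and of 51569 such sites 40.5% were gained and 34.0% lost. No list was tested as a set.

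Pluripotency factors were gained at most promoters. Of 26 promoters, 20 were gained and 0 lost, with a median difference of 2.34, and 139 of their 177 distal sites were gained against 12 lost. The largest differences were those of Dppa5a, an RNA-binding protein gene of pluripotent cells, at 5.69 (SE 0.23) and Zfp42 at 5.53. Dppa5a measured 4.61, 4.94 and 4.44 log2 CPM in mESC and -1.24, -1.18 and -0.68 in MEF. Further gains were 4.24 at Dppa4, 4.16 at Tcl1 (a coactivator of AKT), 3.79 at Gdf3, 3.43 at Lin28a (which blocks let-7 maturation), 3.31 at Sall4 and 2.04 at Sox2.

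The 6 genes of this list whose promoters were not gained had gained distal sites. They were Esrrb, Klf2, Klf4, Klf5, Tbx3 and Mycn, chosen here after their values were seen. The promoter differences ran from -0.53 at Tbx3 to 0.87 at Mycn, and that of Klf4 was -0.33 (SE 0.12; adjusted p = 0.021), a call that was lost in 4 of the alternative analyses. Of their distal sites, 9 of 11 were gained at Klf2, 9 of 10 at Klf5, 9 of 15 at Tbx3, 10 of 12 at Mycn and 6 of 14 at Klf4, where 4 were lost. The Klf4 count is near the 40.5% gained of all distal sites within 100 kb. Having a gained distal site was common, since of 13253 genes with a distal site 4797 had gained but no lost ones and 4155 had both. Esrrb had another promoter site that was gained, and Tbx3 and Mycn each had one that was lost.

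Epithelial junction genes were also gained, 13 of 19 promoters with 0 lost, a median difference of 1.49, and 77 of 107 distal sites. Counted by any promoter site, 18 were gained and 1 lost. Esrp1, a splicing regulator of epithelial cells, measured 4.02, 3.70 and 3.88 log2 CPM in mESC and 0.45, 0.50 and 0.71 in MEF (difference 3.31, SE 0.12). Cldn4, a tight junction claudin, had a difference of 3.28, Krt8 of 2.72, Grhl2 of 2.23 and Cdh1, which encodes E-cadherin, of 2.03. At Cdh1, 15 of 16 distal sites were gained.

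Of the 16 germline genes listed, 8 had a promoter site, of which 7 were gained (median of the 8, 3.14). Tdrd12, a tudor protein of the piRNA pathway, measured 3.95, 3.63 and 4.02 log2 CPM in mESC and -0.59, 0.34 and -0.20 in MEF (difference 4.01, SE 0.29). Mael had 3.98, Ddx4 (the germ cell helicase VASA) 3.57, Sycp3 3.16 and Piwil2 3.01. Dazl fell by 0.53. Of the 12 distal sites nearest to the listed genes, 5 were gained (41.7%) and 4 lost (33.3%), near the 40.5% and 34.0% of all distal sites within 100 kb. At Sycp3, 3 of 3 distal sites were lost. The other 8 genes, Sycp1 and Tdrd1 among them, had no promoter site in this peak set, so a share over all listed genes cannot be given.

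Promoters of developmental regulators of other lineages were also more open in mESC. Of 16 with a site, 9 were gained and 0 lost, with a median difference of 1.17, and by any promoter site 12 were gained and 1 lost. Olig2, a factor of oligodendrocyte and motor neuron progenitors, measured 5.19, 5.70 and 5.44 log2 CPM in mESC and 2.57, 2.77 and 2.60 in MEF (difference 2.80, SE 0.16). Neurog1, a proneural factor, had a difference of 2.48, Sox17 (endoderm) 2.47, T (brachyury, mesoderm) 1.94 and Myod1 (skeletal muscle) 1.54. Gata6, Pax6 and Gata2 fell by 0.63, 0.48 and 0.43, all called. Pax6 and Gata2 each had another promoter site that was gained, and Gata6 one that was lost.

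Fibroblast matrix genes were lost almost throughout. Of 25 promoters, 20 were lost and 0 gained, with a median difference of -1.91, and 187 of 232 distal sites were lost against 21 gained. Col6a3, a chain of type VI collagen, measured -0.45, -1.20 and -0.55 log2 CPM in mESC and 4.43, 3.94 and 4.23 in MEF (difference -4.94, SE 0.27). Lum, the proteoglycan lumican, fell by 4.38, Postn (periostin) by 4.14, Lox (the collagen cross-linking oxidase) by 3.12 and Col1a1 by 1.61. The 5 promoters short of the boundary were Fn1, Sparc, Vcan, Fbln1 and Fbln2, all called, which fell by 0.62 to 0.97. Counted by any promoter site, 22 genes were lost and 1 gained, Thbs2, which had a lost site too.

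Contractile genes and their serum response factor partners were lost at 7 of 17 promoters and at 85 of 132 distal sites, and 9 were lost by any promoter site. Acta2, smooth muscle actin, measured 1.0638, 0.839 and 1.0003 log2 CPM in mESC and 5.84, 5.78 and 5.66 in MEF (difference -4.79, SE 0.08; adjusted p = 4.01e-12). Tagln, a calponin-family actin-binding protein, fell by 2.78. Cald1 and Tpm1, which bind actin filaments, had 22 of 25 and 16 of 17 distal sites lost. The Tpm1 promoter site of highest level was called higher by 0.29 (SE 0.11), and another one was lost.

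Mesenchymal transcription factors were lost at 7 of 20 promoters and at 73 of 116 distal sites. With any promoter site counted, 9 were lost and 1, Osr2, was gained. Twist2, a basic helix-loop-helix factor, measured 2.56, 2.87 and 2.51 log2 CPM in mESC and 5.24, 5.07 and 5.19 in MEF (difference -2.52, SE 0.12). At Runx1, a Runt-domain factor, the promoter fell by 0.31 (SE 0.11) while 23 of 25 distal sites were lost. Snai2 and Snai1, repressors known from epithelial-mesenchymal transition, had promoter differences of 0.01 and -0.24 that were not called, although Snai1 had another promoter site that was lost. Zeb1, a repressor of the same process, and Osr2, a zinc finger factor, were called higher in mESC, by 0.53 (SE 0.20) and 0.50 (SE 0.08).

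Signalling pathways were described by list. In the TGF-beta list, 4 of 15 promoters and 90 of 149 distal sites were lost. With any promoter site counted, 8 were lost, with the ligand genes Tgfb2, Tgfb3 and Inhba and the latency protein gene Ltbp1 added, and 0 gained. The receptor Tgfbr2 measured 3.89, 3.57 and 3.78 log2 CPM in mESC and 5.41, 5.37 and 5.38 in MEF (difference -1.64, SE 0.10), and the effector Smad3 fell by 1.47. Among YAP/TEAD genes, 4 of 12 promoters were lost, led by the target Ankrd1 with 1.43, 0.84 and 0.21 against 4.78, 4.66 and 4.04 (difference -3.66, SE 0.42), and 0 were gained. Counted by any promoter site, 6 were lost and 3 gained, the latter at the factors Tead1 and Tead2 and the kinase gene Lats2. Lats2 is among the lost as well, since its site of highest level fell by 1.08. Distal sites near this list were 48 gained (35.3%) and 55 lost (40.4%) of 136, near the 40.5% and 34.0% of all distal sites within 100 kb.

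Among AP-1 genes, 2 of 9 promoters were lost, Fosl2 with a fall of 1.71 (SE 0.07) and Batf3 with 1.21. The Fosl1 promoter was called higher by 0.25 (SE 0.15), a value that changed sign with a GC offset. In the Nodal and BMP list, the ligand Nodal (1.49) and its antagonist Lefty1 (2.67) were gained, and Id1, a BMP target, fell by 1.604. By any promoter site 3 of the 11 genes were gained and 3 lost. Lefty1 measured 3.58, 3.33 and 3.40 log2 CPM in mESC and 0.34, 1.15 and 0.82 in MEF. Of 20 Wnt promoters, 1 was gained, that of the ligand Wnt3 (1.34), and 1 was lost, that of the ligand Wnt5a (-1.25), while 9 were not called. By any promoter site, 4 were gained and 2 lost. Beside 8.24% and 8.05% over all genes, or 14.8% and 15.2% by any site, nothing is read from these counts.

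In the FGF and LIF list, 1 of 17 promoters was gained and 2 were lost, shares near the 8.24% and 8.05% over all genes, so only single members are described. Fgf4, secreted by mESCs, measured 4.921, 5.004 and 4.888 log2 CPM in mESC and 1.38, 1.35 and 2.05 in MEF (difference 3.34, SE 0.23), with 7 of 7 distal sites gained. Fgf7, a growth factor made by mesenchymal cells, measured -0.71, -0.10 and -1.23 against 3.60, 3.38 and 3.84 (difference -4.29, SE 0.35). Fgf2 fell by 1.25. The remaining 14 promoters of this list were neither gained nor lost at the site of highest level, but the receptor gene Fgfr2, which fell by 0.89 there, had another promoter site that was lost.

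Innate immune genes were lost at 3 of 16 promoters, or 4 by any promoter site, and gained at 1. The losses were at Tmem173 (STING, an adaptor of DNA sensing), with a difference of -2.23, Ifih1 (the RNA sensor MDA5), with -1.30, and Tlr3, with -1.29, and the gain was at Ifitm1 (1.76). Tmem173 measured 1.84, 1.51 and 1.46 log2 CPM in mESC and 3.94, 3.70 and 3.88 in MEF. Isg15, Ifit1, Ifit3 and Mx1 had no promoter site. Beside these counts, 8.05% of all genes were lost and 8.24% gained, or 15.2% and 14.8% by any site. Of the 39 distal sites of this list, 15 were gained (38.5%) and 10 lost (25.6%), beside 40.5% and 34.0% of all distal sites within 100 kb.

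Of 34 Hox promoters, 5 were gained and 5 lost, and by any promoter site 5 were gained and 8 lost, with Hoxb6, Hoxb9 and Hoxc9 added. By any site 14.7% were gained and 23.5% lost, beside 14.8% and 15.2% over all genes, and nothing is read from the gained share. At the site of highest level, 8.24% of all genes were gained and 8.05% lost. Of the 47 distal sites of the Hox list, 4 were gained (8.51%) and 18 lost (38.3%), beside 40.5% and 34.0% of all distal sites within 100 kb. The list was not tested as a set. The gained promoters at the site of highest level were Hoxa13, Hoxc13, Hoxd11, Hoxd12 and Hoxd13, with differences of 1.13 to 1.72. Other genes of high number were not gained, with -0.58 at Hoxa10, -0.39 at Hoxc10, 0.36 at Hoxc11 and -0.03 at Hoxb13, the last of which was not called, so no order along the clusters is read. The lost ones were Hoxa2, Hoxa3, Hoxa9, Hoxb2 and Hoxc6, with differences of -2.34 to -1.08. Hoxd13 measured 4.08, 4.28 and 4.23 log2 CPM in mESC against 2.50, 2.61 and 2.31 in MEF, and Hoxb2 measured 1.80, 1.71 and 1.55 against 3.97, 4.07 and 4.06.

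DNA methylation genes held a case of opposite change within 1 gene. The promoter of Tet1, a 5-methylcytosine dioxygenase, measured 3.43, 3.34 and 3.38 log2 CPM in mESC and 4.58, 4.64 and 4.66 in MEF (difference -1.24, SE 0.04), while 12 of its 15 distal sites and another of its promoter sites were gained. At Tet2, 12 of 13 distal sites were gained and the promoter differed by 0.18 (SE 0.12). Dnmt3l, the cofactor of de novo methylation, was gained by 1.72. By any promoter site, 4 of the 10 genes of this list were gained and 3 lost, against 2 and 1 at the site of highest level.

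Cell cycle and housekeeping lists were described in the same way. Of 17 promoters of the G1 cell cycle list and 20 of ribosomal protein genes, 0 were gained and 0 lost, with medians of -0.14 and -0.27, beside 8.24% gained, 8.05% lost and a median of -0.24 over all genes. By any promoter site, 2 of the G1 genes were gained and 2 lost, and 1 ribosomal protein gene, Rpl3, was gained. These shares are near or below those of all genes, and nothing is read from them. Of 16 glycolysis promoters, 1 was lost, that of Ldha (lactate dehydrogenase A), with 3.42, 3.46 and 3.56 log2 CPM in mESC against 5.17, 5.08 and 5.08 in MEF (difference -1.63, SE 0.05), and 0 were gained. By any promoter site 3 were gained (Hk2, Tpi1 and Slc2a3) and 2 lost, with Pfkm added. Of the 77 distal sites of this list, 47 were gained and 11 lost, with 12 of 16 gained at the glucose transporter gene Slc2a3.

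**Figure D3:**
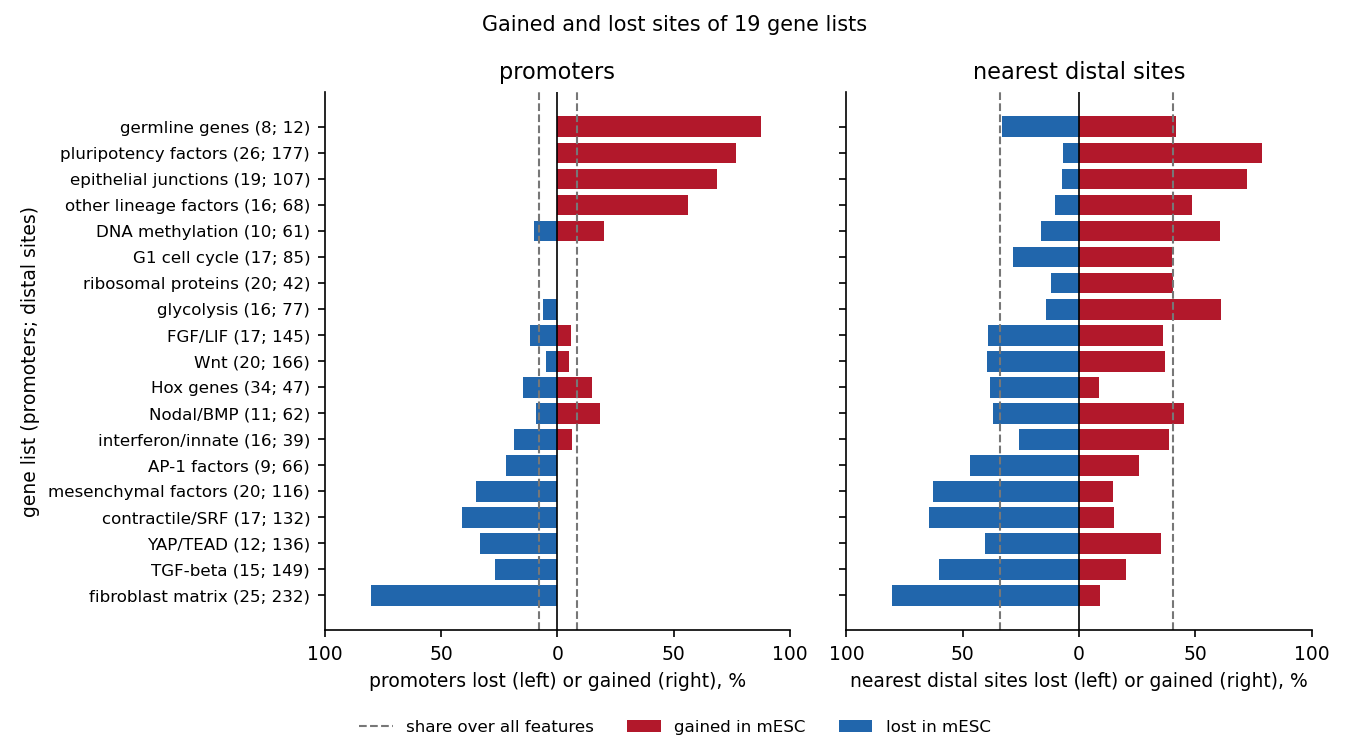
Share of promoters (left panel) and of nearest distal sites (right panel) gained (red, to the right) or lost (blue, to the left) in mESC for 19 gene lists, with the numbers of promoters and distal sites beside each name and dashed lines at the shares over all features. Fibroblast matrix genes reach 80.6% lost distal sites and pluripotency factors 78.5% gained ones, whereas G1 and ribosomal promoters show no bar.

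Marker lists of other cells that a sort could carry were examined in the same way. Among blood markers, Cd68 had a promoter site, which was gained by 2.20 (SE 0.28), whereas Ptprc, Spi1, Csf1r, Itgam and Cd3e had none. None of 4 keratinocyte markers had one. The endothelial markers went different ways. Pecam1 fell by 2.62 (SE 0.47), with 7 of 10 distal sites gained, and Tek was called higher by 0.34, a value that turned to -0.13 with a GC offset. Kdr (-0.10, with 5 of 5 distal sites lost) and Esam (-0.30) were not called. Of the 30 distal sites of this list, 11 were gained and 13 lost. Summed promoter levels of the 4 endothelial markers with a site were 35.3 to 39.1 CPM in mESC and 39.99 to 49.90 in MEF. Those of 5 primitive endoderm markers were 96.7 to 106 CPM in mESC and 121 to 134 in MEF, although Sox17 (2.47) and Foxa2 (1.89) were gained and Dab2 fell by 1.88, and by any promoter site Gata6 and Pdgfra were lost too. Neural markers summed to 92.5 to 98.4 CPM against 67.7 to 78.2, with Sox1 gained by 2.50 and Map2 called higher by 0.43, whereas Tubb3 fell by 0.29 and Nes (-0.22) was not called. Trophoblast markers summed to 48.3 to 55.9 against 28.3 to 30.1, with Eomes gained by 1.17, Tfap2c called higher by 0.93 and Elf5 (-0.04) not called. Of 2 muscle markers with a site, Myod1 was gained and Des, which encodes desmin, fell by 1.46. The part of other cells in the results was not tested.

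Promoter and distal sites of a gene tended to change in the same direction. Genes with a gained promoter had 53.4% of their distal sites gained and 19.9% lost. Genes with a lost promoter had 22.2% gained and 55.3% lost, and genes with neither had 41.9% and 33.1%. Of 13253 genes with a distal site, 4797 had gained but no lost ones, 2751 lost but no gained ones, and 4155 had both.

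The most gained distal sites were nearest to Etl4 (31 of 50), AC149090.1 (27 of 50), Dst (dystonin, a cytoskeletal linker, 25 of 37), Rbpms (an RNA-binding protein, 25 of 32), Rbpj (the Notch transcription factor, 22 of 34), Spred2 (an inhibitor of Ras-ERK signalling, 22 of 33), Akap12 (21 of 29) and Klf9 (21 of 25). Of their promoters, those of Rbpms (1.55) and AC149090.1 (2.13) were gained. Rbpms measured 5.36, 5.62 and 5.36 log2 CPM in mESC and 3.82, 3.80 and 4.07 in MEF. The other promoter differences ran from -0.46 at Dst to 0.49 at Akap12. AC149090.1 lies on an unplaced scaffold, for which the reference used here gave no sequence.

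The most lost distal sites were nearest to Col5a1 (a chain of type V collagen, 29 of 29), Trio (a guanine nucleotide exchange factor, 29 of 35), Gse1 (28 of 54), Col4a1 (basement membrane collagen, 27 of 31), Frmd4a (25 of 36), Rbms3 (25 of 28), Bach2 (24 of 32) and Foxp1 (24 of 28). The promoters of Col5a1 (-1.85), Trio (-1.71) and Rbms3 (-2.22) were lost as well. Col5a1 measured 3.80, 4.14 and 4.13 log2 CPM in mESC and 5.88, 5.79 and 5.94 in MEF, and its distal sites differed by -6.01 to -1.89. At Gse1, 12 distal sites were gained beside the 28 lost. The promoters of Col4a1 and Foxp1 were not called (differences -0.17 and -0.15).

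Sequence motifs differed in frequency between gained and lost sites. Letters of 20 motifs were searched on both strands over the width of each site, and the shares are descriptions. Among distal sites, the AP-1 motif TGACTCA, bound by FOS and JUN dimers, was in 15.5% of gained, 38.1% of lost and 24.6% of all sites. The TEAD motif was in 10.4%, 19.3% and 13.6%, and the RUNX motif TGTGGTTT in 3.41%, 7.56% and 4.998%. The Thy1 and Col3a1 sequences above show such matches in single sites.

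Most motifs of pluripotency factors were more frequent in gained than in lost distal sites, but so were motifs of other factors. The OCT-SOX composite was in 3.95% of gained, 1.15% of lost and 2.23% of all distal sites, the ESRRB motif in 3.08%, 0.661% and 1.70%, and the KLF motif in 10.4%, 4.51% and 7.27%. The OCT-SOX letters share ATGC with the octamer, which was in 5.57% of gained and 2.58% of lost sites. The SOX motif CATTGTT alone was in 8.595% and 8.355%. Among other motifs, SP (GGGGCGGGG) was in 4.69% of gained and 2.04% of lost distal sites, NFY (AGCCAATC) in 3.39% and 1.71%. The ETS motif ACCGGAAG was in 1.28% and 0.640%, so the higher share in gained sites was not particular to pluripotency factors. Distal sites with an OCT-SOX match had a median difference of 3.05, and those with an AP-1 match one of -1.78.

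The E-box CACCTG, bound by ZEB, SNAI and TCF factors among others, was the most frequent motif of gained sites and also of all sites (31.8%). It has fewer letters than most motifs searched, so its share is high at any site and the ranking is not read. CACCTG was in 43.1% of gained, 17.0% of lost and 31.2% of all distal sites, and in 52.4%, 19.7% and 32.6% of promoter sites. The E-box CAGCTG, which differs in its centre, was in 29.4% of gained and 30.0% of lost distal sites. The CTCF core CTAGNNGGC, of the insulator protein, was in 14.0% of distal sites that were neither gained nor lost, against 6.27% of gained and 4.89% of lost ones.

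GC content moved with the difference, so the shares were also taken in 3 equal classes of distal sites by GC content, up to 46.4%, up to 51.2% and above. In the low, middle and high class, CACCTG was in 36.2%, 41.7% and 48.8% of gained sites and 12.7%, 18.6% and 24.6% of lost ones. AP-1 was in 17.8%, 16.4% and 13.2% of gained and 40.7%, 38.8% and 31.2% of lost sites. OCT-SOX fell from 9.78% of gained sites in the low class to 1.54% in the high class, against 1.45% and 0.657% of lost ones. The order of gained and lost sites was the same in each class for these 3 motifs.

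**Figure D4:**
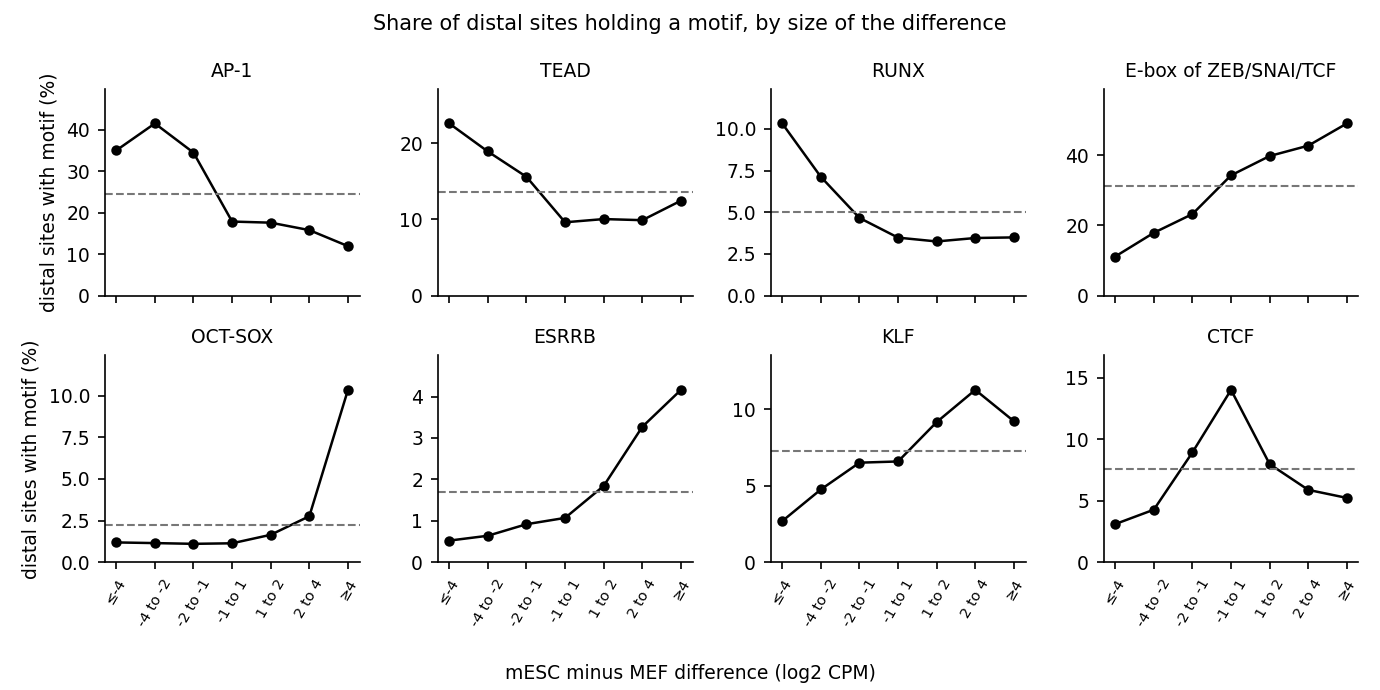
Share of distal sites holding a motif (y axis, percent, one panel per motif) by the mESC minus MEF difference (x axis, bins of log2 CPM), with the share over all distal sites as a dashed line. CACCTG climbs from 11.1% at differences of -4 or lower to 49.0% at 4 or higher, OCT-SOX is set apart mainly in the highest bin, and CTCF peaks at 14.0% between -1 and 1.

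Repeat-masked sequence was far more frequent among gained distal sites than among lost ones. Sites with at least 50% of their bases in lower case in the reference, which marks repeats, were 16.3% of gained, 1.59% of lost and 7.59% of all distal sites. Of the 4668 distal sites of this kind, 83.9% were gained and 7.93% lost, and the median difference was 3.49 (median levels 2.91 log2 CPM in mESC and -0.45 in MEF). Of the 56815 other distal sites with a sequence, 35.3% were gained and 40.3% lost (median difference -0.24). The share climbed with the difference, from 0.910% at -4 or lower to 34.9% at 4 or higher. The families of these repeats are not named here.

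**Figure D5:**
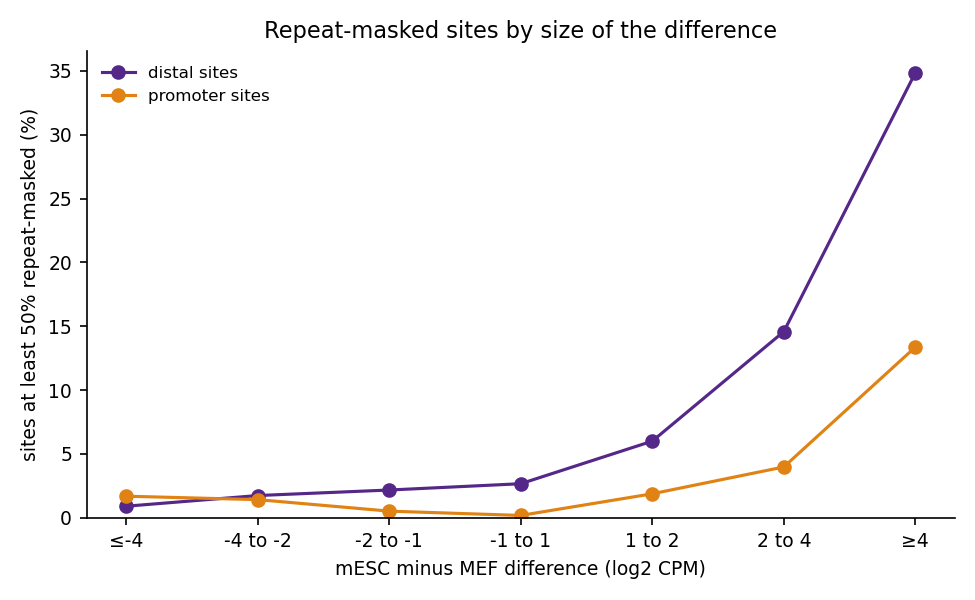
Share of sites at least 50% repeat-masked (y axis, percent) by the mESC minus MEF difference (x axis, bins of log2 CPM) for distal and promoter sites. Both lines stay under 3% up to a difference of 1 and reach 34.9% of distal and 13.4% of promoter sites at 4 or higher.

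Motif shares differed between masked and other gained sites for some motifs. OCT-SOX was in 9.88% of 3917 masked and in 2.79% of 20050 other gained distal sites, and in 1.13% of the lost distal sites that were not masked. CACCTG was in 45.6% and 42.6% of the 2 kinds of gained sites, and ESRRB in 3.14% and 3.07%. The printed Gm5155 site is one of the masked sites with OCT-SOX. Reads that map equally well to several repeat copies were removed by the authors' mapping quality filter, and its part in the levels of masked sites was not tested.

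The contrast was much the same on the peak set made from the Illumina samples. Of the gained sites, 87.1% overlapped a site of that set by at least 50%, and 98.4% of those were gained there too. Of the lost sites, 84.4% overlapped one and 99.8% of those were lost there too, and 0 changed to the opposite state. Both sets were counted from the same libraries, so this is not a second experiment. A limma test of whether the difference depended on the sequencer called 0 of 91354 sites (smallest adjusted p = 0.198), with 9420 at an unadjusted p under 0.05. That is a larger share than the 0.05 that would be reached without any dependence. With 3 libraries per cell type, 0 calls do not show that the differences were independent of the sequencer.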

How the data were processed

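Omni-ATAC-seq was measured in 12 samples, 6 libraries each read on both sequencers. The authors aligned reads to GRCm38.p6/mm10, removed duplicates, mitochondrial reads and reads with a mapping quality under 10, down-sampled the samples to 60 M (MEF) or 45 M reads (mESC) and called peaks in each sample with MACS2. The deposited tables give raw read counts per site, without normalization, for a peak set made from the BGI samples and for one made from the Illumina samples. Columns without a platform in their name were taken as Illumina. The deposited peak calls give −log10 p and the fold enrichment of each summit as a ratio to background. Tables of single cell types were not used, and a few items are not reported here.

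The counts of both platforms were summed per library and tested with edgeR 4.0.16 (quasi-likelihood F test, TMM scaling, filterByExpr with a minimum count of 10, Benjamini-Hochberg adjustment over 91354 sites, two-sided), in R 4.3.3. Levels are TMM-scaled log2 CPM with a prior count of 2, averaged over the platforms. The test was tested on simulated data, where it called 92% of 200 sites changed by 1 on the log2 scale. There were 11 false calls among 91354 sites. In the real data 78223 sites were called, and the number of false calls with so many sites differing was not tested. Genes come from GENCODE M21, and sequence, GC, CpG and repeat masking from the RefSeq copy of GRCm38.p6, which gave none for 69 sites on unplaced scaffolds. The median site held 119 to 156 reads per sample.

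In each of 4 classes (promoter or distal, gained or lost), the 7 sites with the largest difference and no overlap between groups were named, 1 per gene and none on chromosome Y. Also named were the 8 genes with most gained and the 8 with most lost distal sites, and up to 2 largest rises and falls per gene list; further list members are examples. Members and lists were chosen with earlier results of these data known. Samples of one group differed by more than sampling noise (chi-square per degree of freedom 2.24 to 10.1), so none was counted as a duplicate. limma 3.58.1 and DESeq2 1.42.0 served as alternatives, beside other scalings, filters, prior counts, promoter windows, a GC offset, single platforms and leaving out each library.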

Additional observations from a re-analysis of the deposited data

How the results depend on the processing

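Counts of sites higher, lower, gained and lost stayed within 1.5 times of the reported ones under every alternative that gave them, from 27909 (glmTreat, which tests for a change over 2-fold) to 31321 gained and from 24868 to 28502 lost. Promoter shares moved more than their counting error. Against 8.55% of gained and 9.27% of lost sites, they were 9.07% and 7.79% with no scaling factors, 9.48% and 7.12% with the down-sampled depth as library size, 8.98% and 8.57% on BGI columns only, 8.16% and 10.1% on Illumina columns only, 8.13% and 12.1% with a GC offset, and 8.12% and 6.74% with glmTreat. With a promoter window of 500 bp they were 5.78% and 6.13%, with 2 kb 13.1% and 13.0%, and with the TSSs of all genes 16.4% and 14.7%. The lost share alone moved with RLE size factors (8.40%), the Illumina peak set (10.4%) and a prior count of 10 (8.83%). Leaving out each library gave 8.56% to 8.92% of gained and 8.08% to 9.40% of lost sites. The cause of these moves was not tested. The difference in promoter read share ran from -3.75 to -1.93 percentage points.

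An alternative chosen after seeing the data counted a gene by any of its promoter sites in place of the one of highest level. It raised the genes gained from 1212 to 2181 and those lost from 1184 to 2242, since more sites count.

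Of 2157 values of 108 named sites under the alternatives, 2119 kept direction and call, 34 lost the call and 4 changed sign. The main differences were 0.25 at the Fosl1 promoter site, 0.22 at that of Spry4 and 0.34 at that of Tek, all called higher in mESC. With a GC offset the Fosl1 promoter site came to -0.045, the Spry4 promoter site to -0.032 and the Tek promoter site to -0.13. On Illumina columns only, the Spry4 promoter site came to -0.012. The cause was not tested.

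mESC and MEF libraries share only the number 1, so library numbers cannot pair the cell types. A limma fit of all 12 samples with a platform term and a replicate block for the library, which ties the 2 platform samples of a library (consensus correlation 0.486), called 37531 sites higher and 42694 lower, with 29511 gained and 27933 lost. It moved no count by over 1.5 times. Few reads in the closed state limit the size of the differences there, and with 3 libraries per cell type the exact permutation test of a read share cannot go below p = 0.1.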
